A study of Homo sapiens with 6 samples.

Results

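Autophagy is described here through 41 genes, the core machinery that builds the autophagosome and the receptors that bring cargo to it. The genes were taken from a list of symbols chosen with earlier results of these data known, by a rule that uses no measured value, and matched to Ensembl identifiers; all 41 were found among the 65988 identifiers counted, and all 41 had enough reads to be tested. They fall into 6 steps: 5 genes of ULK initiation, 6 of the PI3K complex, 8 of lipid transfer and phagophore growth, 10 of conjugation, 5 of the ATG8 family and 7 cargo receptors. The RNA came from U87MG, an established human glioblastoma line labelled WT in all samples. The control arm received vehicle (n = 3 libraries) and the treated arm RSL3, a small-molecule inhibitor of the lipid peroxide-reducing enzyme GPX4, at 2 µM (n = 3 libraries); the sample labels give no time, and the study's text places RNA isolation at 24 h. Libraries of poly(A) RNA were read from both ends, and the question put to the data was which genes respond when ferroptosis, an iron-dependent death by lipid peroxidation, is set off in these cells. No genetic change or further drug separates the groups.

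In autophagy, a kinase complex around ULK1 starts a membrane cup, the PI3K complex marks it with a phosphoinositide, lipid-transfer proteins make it grow, and a pair of ubiquitin-like conjugation reactions attaches ATG8 proteins to it. Cargo receptors then tie ubiquitinated proteins, damaged organelles or ferritin to the ATG8 proteins, and the closed vesicle fuses with a lysosome. In ferroptosis the pathway is known for delivering ferritin, the iron store, to lysosomes.

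Total counts per library ran from 27813462 to 43306335. Mitochondrial genes took 1.18%, 1.26% and 0.918% of the counts in the control libraries and 0.84%, 0.868% and 0.912% in the RSL3 libraries, so the groups did not overlap in this share; its part in the results was not tested. Of 8 glial and glioblastoma markers, VIM and CD44 carried most of the signal, and SOX2 and S100B were at or near 0. The list summed to 98700 to 99890 normalized counts in the control libraries against 79960 to 83820 in the RSL3 libraries. VIM and CD44 were lower after RSL3 (log2 fold changes -0.29 and -0.39, adjusted p = 2.2e-08 and 1.2e-08, edgeR). EGFR, NES, OLIG2 and GFAP were not called, with positive log2 fold changes of 0.06, 0.25, 0.13 and 0.40. Of the markers of other cells, MOG (oligodendrocyte) and AIF1 (microglia) were at 0 in every library, and the summed oligodendrocyte, microglia and endothelial lists came to at most 207 in every library, although the oligodendrocyte list rested on MBP and ranged from 81.17 to 105.3 in control and from 147.7 to 159.9 after RSL3. The neuron list, mostly SYT1 and SNAP25, ranged from 1028 to 1117 and from 1128 to 1156, with SYT1 higher after RSL3 (log2 fold change 0.24, adjusted p = 0.00214) and SNAP25 lower (-1.04, adjusted p = 4.84e-05, edgeR). In the endothelial list VWF was lower after RSL3 (log2 fold change -1.33, adjusted p = 0.00111) and KDR higher (0.54, adjusted p = 0.0103, edgeR). The part of these markers in the results was not tested. Counts per gene are relative to each library's total, so a loss of cells and less RNA per cell cannot be told apart in them. The study describes its results in general as coming from biologically independent experiments or samples, but neither the labels nor its RNA-seq methods say whether the 3 libraries of a group were separate cultures; if they were not, the p-values measure technical spread only.

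SQSTM1 had the highest level of the 41 genes and the largest rise. It encodes p62, the receptor that binds both ubiquitinated cargo and ATG8 proteins, and it lies at chr5:179806398-179838078, plus strand (GENCODE v44, GRCh38). The 3 control libraries held 87241, 88098 and 82841 normalized counts and the 3 RSL3 libraries 130280, 128010 and 118640. Every RSL3 library was above every control library, and the means were 86060 ± 2820 and 125600 ± 6170 (SD, n = 3 each), a 1.46-fold rise (log2 fold change 0.55 ± 0.03 SE, adjusted p = 7.74e-11, edgeR's quasi-likelihood test with Benjamini-Hochberg adjustment over 16105 genes). Of its exon bases, 22.4% are shared with genes on the other strand, mainly MRNIP, and reads there cannot be assigned by strand. MRNIP had 779 to 1279 counts per library and a log2 fold change of 0.24 (adjusted p = 0.00905), while SQSTM1 had at least 71629 counts in every library.

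Across the 41 genes the changes went both ways and were small. With an adjusted p under 0.05, 12 rose, 5 fell and 24 did not pass; that is 41.5% called, where 25.6% of all genes tested were called, 12.9% as higher and 12.7% as lower. With libraries scaled by total counts in place of TMM, the edgeR split was 9 higher and 8 lower: UVRAG, ATG2B and ATG3 no longer passed, and ATG5, OPTN and CALCOCO2 did, as lower. The median log2 fold change of the 41 was -0.02, that of all genes tested -0.004, and the range ran from -0.58 for GABARAP, which was not called, to 0.55 for SQSTM1. In 24 of the 41 genes the 3 RSL3 libraries lay wholly above or wholly below the 3 control libraries, as they did in 38.6% of all genes. Most of these genes are well expressed, and well-expressed genes were called more often: 27 of the 41 lie in the top quartile of genes by mean count, where 45.6% of all genes were called and 13 of the 27 were. In the next quartile 31.8% of all genes and 3 of 9 members were called, then 18.9% and 1 of 3, and in the lowest quartile 6.11% and 0 of 2. The share called among these genes was thus near that of genes of like abundance. The median absolute log2 fold change was 0.20 over the 17 called members and 0.24 over all called genes.

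**Figure D1:**
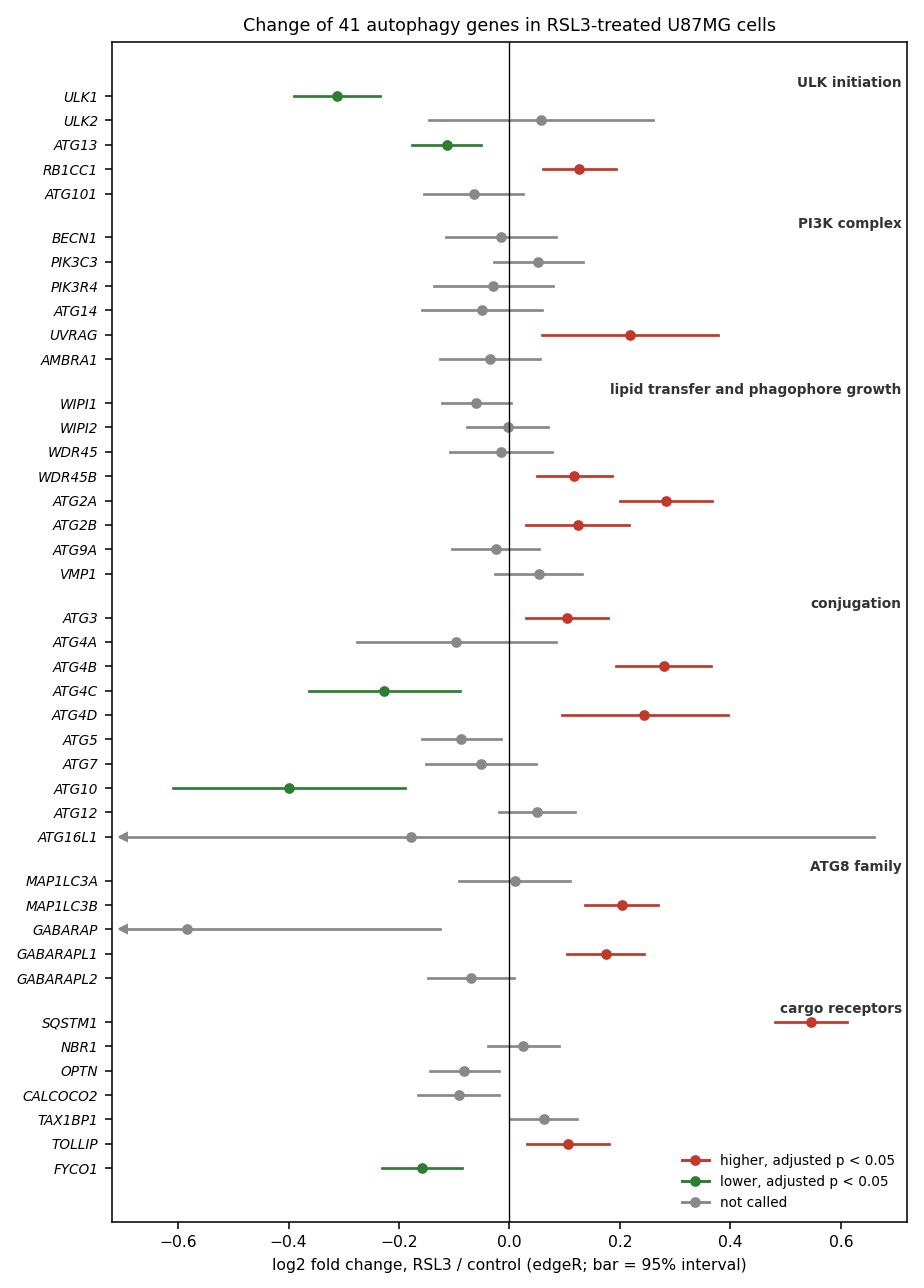
Log2 fold change (RSL3 over control, x axis) of each of the 41 genes, ordered by step; points are edgeR estimates, bars their 95% intervals, red called higher, green called lower, grey not called at adjusted p under 0.05. SQSTM1 at 0.55 lies apart from the other genes called higher, which lie between 0.10 and 0.28, and the 5 called lower lie between -0.40 and -0.11; arrowheads mark the intervals of ATG16L1 and GABARAP that run past the axis.

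Before the steps are taken in turn, promoter stretches of some of the genes that rose are shown. Whether they bear on the rises was not tested. RefSeq's table of start sites (GRCh38.p14) matched 36 of the 41 genes, with 47 windows (RB1CC1, UVRAG, WDR45B, ATG4D and MAP1LC3A were not matched), and the 250 bases before each start were searched on both strands. The motifs were TCACGTGA, the CLEAR core bound by TFEB and its relatives, CACGTG, the E-box that the CLEAR core contains, TGACNNNGC, the antioxidant response element bound by NRF2, and TGACGTCA, the cAMP response element, which was added after the GABARAPL1 window had been read. The CLEAR core was in 0 of the 47 windows and in 0.854% of all 35116 windows. The E-box was in 4.26% of the 47 windows (ATG3 and ATG14) against 6.34% of all, the antioxidant response element in 8.51% (MAP1LC3B, TOLLIP, ATG101 and CALCOCO2) against 10.9%, and the cAMP response element in 2.13% (GABARAPL1) against 1.65%. Of these 7 genes, ATG3, MAP1LC3B, TOLLIP and GABARAPL1 rose and the other three were not called. The matches in the genes that rose are printed 5′ to 3′ on the gene's strand with the motif in capitals. They lie at chr3:112561965-112561990 (ATG3, minus strand, motif starting 18 bases before the start site), chr16:87392280-87392308 (MAP1LC3B, plus, 46 bases), chr11:1309809-1309837 (TOLLIP, minus, 195 bases) and chr12:10212837-10212864 (GABARAPL1, plus, 30 bases).
ATG3: tttctcacgtCACGTGccgggagagt
MAP1LC3B: gcgagtcaccTGACCAGGCtgcgggctga
TOLLIP: acaaccgtcaTGACTGGGCatgcgcaaac
GABARAPL1: gctcgcggggTGACGTCAcagcccgacg

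SQSTM1, the gene that rose most, has 3 start sites in that table, and none of its 3 windows held any of the 4 motifs, which says only that these letters are not within 250 bases of those starts. The first 200 of the 250 bases before its last annotated start, chr5:179820655-179820854 on the plus strand, are shown in lower case since no motif was found.
SQSTM1: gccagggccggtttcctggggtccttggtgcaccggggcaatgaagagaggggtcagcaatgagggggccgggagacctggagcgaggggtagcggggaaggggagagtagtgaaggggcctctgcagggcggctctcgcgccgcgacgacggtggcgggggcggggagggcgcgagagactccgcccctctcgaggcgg

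The 5 genes of ULK initiation did not move together: 1 rose, 2 fell and 2 did not pass. ULK1, the kinase that starts autophagosome formation (chr12:131894622-131923150, plus strand, no exon base shared with another gene counted), had 4874.4, 4725.3 and 5192.8 normalized counts in control and 3861, 4045.6 and 4011.2 after RSL3. It fell to 0.805 of the control mean (log2 fold change -0.31 ± 0.04 SE, adjusted p = 1.87e-06, edgeR), and the lowest control library was well above the highest RSL3 library. ATG13, the adaptor through which mTORC1 also restrains the kinase, had the highest mean level per length of the step in control and fell less, with 8072.2, 7932.9 and 7760.2 in control against 7310.4, 7264.6 and 7389.5 (log2 fold change -0.11, adjusted p = 0.00734). RB1CC1, the large scaffold FIP200, went the other way: 8445.4, 8514.7 and 8203.7 in control and 8990.9, 9497.2 and 8967.8 after RSL3 (log2 fold change 0.13, adjusted p = 0.00519), a call that was lost without RSL3 library 2 (adjusted p = 0.0625, edgeR). In both genes the groups did not overlap. ULK2, the related kinase, was scarce, at 317.2 ± 33.1 normalized counts in control and 331.9 ± 5.73 after RSL3 (SD, n = 3 each), with overlapping groups and a log2 fold change of 0.06 (adjusted p = 0.736, edgeR). ATG101, which stabilises ATG13, had a log2 fold change of -0.06 (adjusted p = 0.302).

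Of the 6 genes of the PI3K complex, only UVRAG was called, and its call held in 6 of 14 other fits. BECN1, the scaffold of the complex and its member with the highest level per length, had 2350.8, 2668.9 and 2299.3 normalized counts in control and 2457.5, 2338.5 and 2422.9 after RSL3. The groups overlapped, and the log2 fold change was -0.02 with a 95% interval from -0.12 to 0.08 (adjusted p = 0.856, edgeR). PIK3C3, the lipid kinase, had 0.05, PIK3R4, its regulatory subunit, -0.03, ATG14, which directs the complex to the phagophore, -0.05, and AMBRA1, which tethers BECN1, -0.04, with adjusted p from 0.372 to 0.748 and overlapping groups in each. UVRAG takes the place of ATG14 in the complex that acts on endosomes. Its control libraries spread widely, at 612.84, 689.98 and 784.61, while the RSL3 libraries lay close together at 809.2, 815.14 and 798.64. The rise was 0.22 ± 0.08 SE on the log2 scale (adjusted p = 0.0408, edgeR), and it was lost without control library 1 (adjusted p = 0.257), control library 2 (0.0738), or RSL3 library 1 (0.0903), 2 (0.112) or 3 (0.0552).

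The 8 genes of lipid transfer and phagophore growth gave 3 rises and no fall. ATG2A and ATG2B are the bridge-like proteins that carry lipid into the growing membrane, and both rose. ATG2A (chr11:64894546-64917209, minus strand, no shared exon base) had 2053.8, 2076.1 and 2093.2 normalized counts in control and 2579.3, 2580.4 and 2414.9 after RSL3. Every RSL3 library was above every control library, and the fold was 1.22 (log2 fold change 0.28 ± 0.04 SE, adjusted p = 1.44e-05, edgeR). ATG2B had 2004.3, 2181.9 and 2213.4 against 2423, 2271 and 2269.1, with groups close to each other (log2 fold change 0.12, adjusted p = 0.0463), and its call was lost without control library 1 (adjusted p = 0.252) or RSL3 library 1 (0.214) or 2 (0.0675). WDR45B, a reader of the phosphoinositide mark, had 3998.4, 3983.7 and 3960.9 in control, the tightest control values of all 41 genes, and 4257.5, 4407 and 4288.7 after RSL3 (log2 fold change 0.12, adjusted p = 0.0102, edgeR); without RSL3 library 2 the adjusted p was 0.0675. WIPI1, another reader and the member of this step with the highest level per length, had 8144.5, 8335.1 and 8191.7 against 8017.3, 7918.8 and 7728.9; the groups did not overlap, and the log2 fold change of -0.06 did not pass (adjusted p = 0.158, edgeR). The readers WIPI2 and WDR45 and the scramblases ATG9A and VMP1 had log2 fold changes of -0.003, -0.02, -0.03 and 0.05, with adjusted p from 0.348 to 0.965.

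Conjugation, with 10 genes, held 3 rises and 2 falls, and its ATG4 proteases went in both directions. These enzymes trim ATG8 proteins before conjugation and release them from membranes later. ATG4B, the main human form (chr2:241637213-241673857, plus strand, no shared exon base), had 1884.9, 1848.6 and 1818.7 normalized counts in control and 2232.2, 2337.4 and 2169.3 after RSL3, a 1.21-fold rise (log2 fold change 0.28 ± 0.04 SE, adjusted p = 2.82e-05, edgeR). ATG4D rose by a similar amount, from 855.62, 687.52 and 718.07 to 916.1, 891.98 and 886.49 (log2 fold change 0.24, adjusted p = 0.0153), but control library 1 lay near the RSL3 libraries, and the call was lost without control library 2 (adjusted p = 0.0707) or 3 (0.0677) or RSL3 library 1 (0.0542). ATG4C fell, from 723.62, 718.27 and 703.28 to 614.95, 619.92 and 598.98 (log2 fold change -0.23, adjusted p = 0.0132), and ATG4A had overlapping groups and a log2 fold change of -0.10 (adjusted p = 0.476).

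The enzymes that pass the ubiquitin-like proteins on also split. ATG10, the E2-like enzyme for ATG12, fell most of the called genes: 409.35, 327.16 and 353.95 normalized counts in control and 286.21, 272.06 and 273.54 after RSL3 (log2 fold change -0.40 ± 0.10 SE, adjusted p = 0.00523, edgeR). Without control library 1, its highest, the log2 fold change was -0.30 and the adjusted p 0.0559. Of the exon bases of ATG10, 6.87% are shared with RPS23 on the other strand. RPS23 had 10758 to 16850 counts per library (log2 fold change 0.05, adjusted p = 0.247, edgeR), and ATG10 249 to 521. The part of RPS23 reads in the ATG10 counts was not tested. ATG3, the E2-like enzyme for the ATG8 proteins and the member of this step with the highest level per length, had 4244.3, 4090.7 and 4020.1 against 4256.4, 4493.2 and 4535.3. Control library 1 and RSL3 library 1 all but touched, the log2 fold change was 0.10 (adjusted p = 0.0344), and the call was lost without control library 2 (adjusted p = 0.0815) or 3 (0.116) or RSL3 library 2 (0.131) or 3 (0.101). ATG7, the E1-like enzyme of both reactions, had a log2 fold change of -0.05 (adjusted p = 0.494), and ATG12 had 0.05 (adjusted p = 0.306). ATG5, the acceptor of ATG12, was lower in all RSL3 libraries, at 3088 ± 8.94 against 3281 ± 69.9 (SD, n = 3 each), but did not pass (log2 fold change -0.09, adjusted p = 0.0706, edgeR). ATG16L1, which places the conjugate on the membrane, had only 11.494 to 22.138 normalized counts per library, and its interval from -1.02 to 0.66 on the log2 scale covers a change of either sign. PSMC4, an essential subunit of the proteasome that was singled out after its values were seen, was also counted at a mean of only 49.19. That is within the lowest quartile of genes tested by mean count (6.579 to 69.71). A single gene picked this way says nothing on how common such counts are. Whether counts this low reflect the genes' levels, and why they are low, was not tested.

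**Figure D2:**
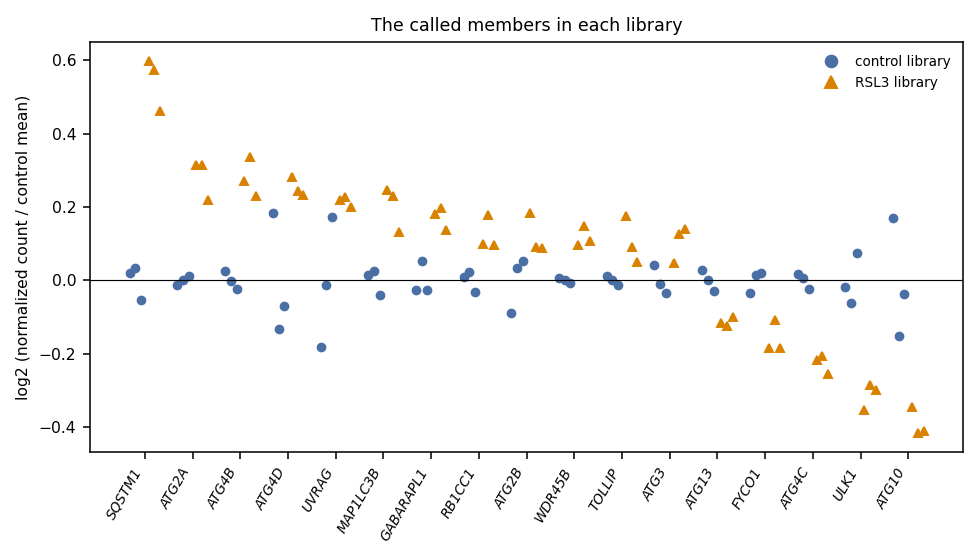
Normalized count of each of the 17 called genes in each of the 6 libraries, as log2 of its ratio to the control mean (y axis); circles are control and triangles RSL3 libraries. SQSTM1 lies between 0.46 and 0.60 after RSL3, no gene has overlapping groups, and the control libraries of UVRAG, ATG4D and ATG10 spread most.

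Among the 5 ATG8 genes, MAP1LC3B and GABARAPL1 rose and 3 did not pass. MAP1LC3B encodes LC3B, whose lipid-bound form is the usual marker of autophagosomes (chr16:87383953-87404779, plus strand). It had 21124, 21268 and 20360 normalized counts in control and 24792, 24510 and 22919 after RSL3, with means of 20920 ± 488 and 24070 ± 1010 (SD, n = 3 each), a 1.15-fold rise (log2 fold change 0.20 ± 0.03 SE, adjusted p = 5.07e-05, edgeR). A near-identical copy, MAP1LC3B2, had 220.2 ± 46.3 and 276.6 ± 46.1, with overlapping groups (log2 fold change 0.34, adjusted p = 0.0834, edgeR). How reads that match both copies were counted is not stated in the sources used here. GABARAPL1 had 5046.5, 5326.8 and 5045 against 5831.1, 5895 and 5655.4, again with no overlap (log2 fold change 0.17 ± 0.03 SE, adjusted p = 0.000492, edgeR); 8.12% of its exon bases are shared with an antisense gene that was listed at 0 in every library. MAP1LC3A had a log2 fold change of 0.01 (adjusted p = 0.923) and GABARAPL2 -0.07 (adjusted p = 0.191), both with overlapping groups. GABARAP was counted at only 76.998, 91.014 and 67.464 in control and 40.23, 57.112 and 57.902 after RSL3, the groups did not overlap, and the log2 fold change of -0.58 ± 0.22 SE did not pass (adjusted p = 0.0561, edgeR). Of its exon bases, 48.2% are shared with other genes in the files, of which a read-through gene on the same strand was listed at 0 in every library and a gene on the other strand had 15 to 56 counts, and reads in the shared bases cannot be assigned to it with certainty.

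The 7 cargo receptors gave 2 rises and 1 fall. In 6 of them the groups did not overlap, as in 38.6% of all genes tested, and of the 6, OPTN, CALCOCO2 and TAX1BP1 were not called. The share without overlap among genes of like abundance was not computed. Beside SQSTM1, TOLLIP, a receptor for aggregated protein, rose: 4425, 4387.1 and 4352.8 normalized counts in control, 4954.1, 4678 and 4539.3 after RSL3 (log2 fold change 0.11, adjusted p = 0.0323, edgeR). RSL3 library 1 carried much of this, with an adjusted p of 0.22 and a log2 fold change of 0.07 without it, and the call was also lost without control library 1 (adjusted p = 0.0539), 2 (0.0646) or 3 (0.074) or RSL3 library 2 (0.0682). FYCO1, an adaptor that links autophagosomes to kinesin transport, fell, from 4147.7, 4298.6 and 4312.1 to 3741.4, 3945.9 and 3737.7 (log2 fold change -0.16 ± 0.03 SE, adjusted p = 0.00168, edgeR). OPTN and CALCOCO2, receptors known from the removal of damaged mitochondria and bacteria, just missed the threshold: OPTN had 14870 ± 198 and 14050 ± 463 (log2 fold change -0.08, adjusted p = 0.0506) and CALCOCO2 4483 ± 127 and 4204 ± 133 (SD, n = 3 each; log2 fold change -0.09, adjusted p = 0.0595). OPTN passed without control library 1 (adjusted p = 0.0462, edgeR) or RSL3 library 3 (0.0188), and CALCOCO2 without RSL3 library 2 (0.0429). With DESeq2 without surrogate variables OPTN also passed (adjusted p = 0.033). TAX1BP1, which works with SQSTM1 and NBR1 on protein aggregates, had a log2 fold change of 0.06 (adjusted p = 0.134), and NBR1 0.02 with overlapping groups (adjusted p = 0.621).

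Levels compared between genes need a scale per length, and reads per kilobase of exon, scaled to the size of each library (RPKM), are used for that, with exon lengths from GENCODE v44. On this scale SQSTM1 was the most abundant of the 41 in both groups, at 335 ± 11 in control and 489.1 ± 24 after RSL3, followed by MAP1LC3B (121.8 ± 2.84 and 140.2 ± 5.88), OPTN (84.9 ± 1.13 and 80.19 ± 2.64) and WIPI1 (70.89 ± 0.856 and 68 ± 1.26). Below them GABARAPL1, MAP1LC3A, WDR45B, GABARAPL2, RB1CC1, ATG13 and TAX1BP1 lay between 30.24 and 41.93, close enough that the order of neighbours such as MAP1LC3A (37.5 ± 1.71) and GABARAPL1 (37.2 ± 1.17) in control cannot be told from their spread. ATG3 led the conjugation step at 19.77 and 21.26. In the initiation step ATG13 (33.19 ± 0.655) and RB1CC1 (32.32 ± 0.629) lay within their spread in control, and after RSL3 RB1CC1 (35.26 ± 1.15) was above ATG13 (30.68 ± 0.265). BECN1 led the PI3K complex at 11.16 and 11.01. As counted, the lowest values were those of ATG10 (1.958 and 1.494), GABARAP (1.18 and 0.7781), ULK2 (0.9428 and 0.9866) and ATG16L1 (0.08086 and 0.06967), and those of GABARAP and ATG16L1 may not reflect the genes' levels.

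**Figure D3:**
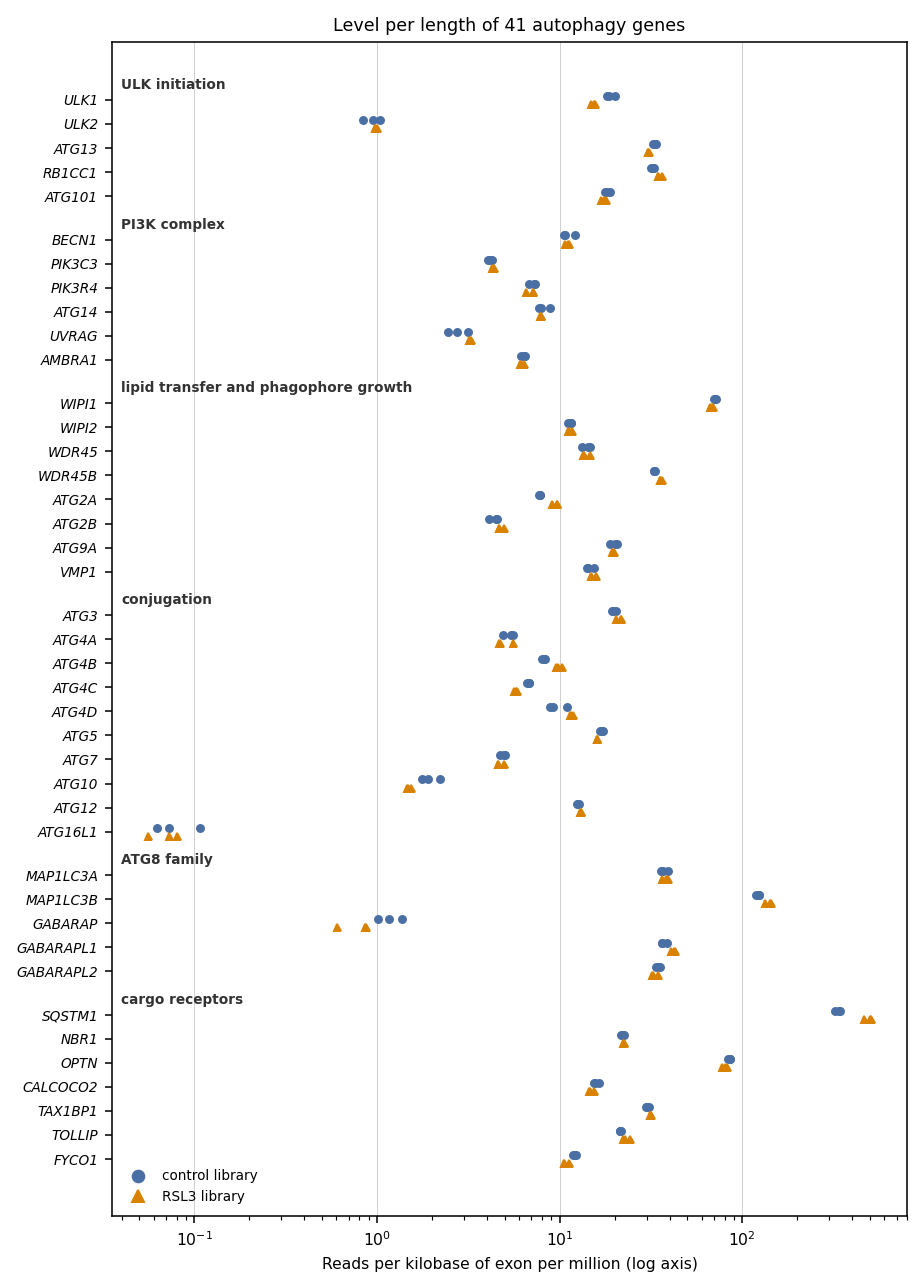
Level per length of each of the 41 genes, in RPKM (x axis, logarithmic), ordered by step; circles are the 3 control and triangles the 3 RSL3 libraries. SQSTM1 lies highest, between 322.5 and 343 in control and between 461.9 and 507.2 after RSL3, and ATG16L1 lowest, at most 0.1074 in every library.

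Summed over a step, the level of the cargo receptors went from 521.7 ± 11.05 to 672.2 ± 22.66 RPKM (SD, n = 3 each), and without SQSTM1 from 186.7 ± 1.662 to 183.1 ± 1.75. The ATG8 sum went from 232.4 ± 4.115 to 253.8 ± 4.565, and without MAP1LC3B from 110.6 ± 1.881 to 113.6 ± 1.739. The other sums moved little: 103.7 and 99.65 for initiation, 39.78 and 39.61 for the PI3K complex, 176.1 and 178.1 for lipid transfer, and 86.23 and 88.82 for conjugation, each in RPKM for control and RSL3. SQSTM1 made up 64.8%, 64.6% and 63.3% of the receptor sum in the control libraries. In the RSL3 libraries it made up 73.7%, 73.1% and 71.5%, a difference of 8.53 percentage points. The share of each of the other 6 receptors was lower in every RSL3 library than in any control library. Shares of a sum are tied to each other, so a rise of the largest member alone lowers the rest. The share of TOLLIP, itself called higher, went from 4.12% to 3.45%. MAP1LC3B made up 52.2%, 53% and 52.1% of the ATG8 sum in control and 56%, 56.1% and 53.6% after RSL3, a difference of 2.81 points, while GABARAPL2 went from 14.9% ± 0.414 to 13% ± 0.721. The SQSTM1 and MAP1LC3B differences both had p = 0.1 in the two-sided exact permutation test, the smallest p that 3 against 3 libraries allow. They restate the rises of these genes on another scale, and the GABARAPL2 share is tied to the other shares in the same way. Over all 41 genes, SQSTM1 alone held 28.3% to 29.3% of the summed RPKM in control and 35.6% to 37.5% after RSL3.

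**Figure D4:**
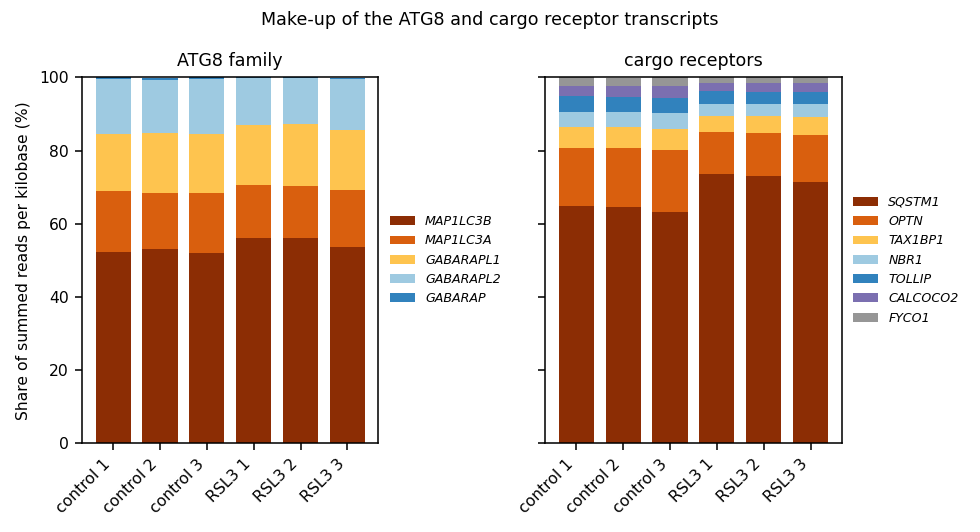
Make-up of the summed level per length of the ATG8 family (left) and the cargo receptors (right) in each of the 6 libraries, as stacked bars in percent (y axis from 0 to 100). SQSTM1 grows from 63.3% to 64.8% of the receptors in control to 71.5% to 73.7% after RSL3, and MAP1LC3B from 52.1% to 53% of the ATG8 family to 53.6% to 56.1%.

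The 41 genes varied little between libraries of a group. Their median coefficient of variation was 2.83% in control and 3.13% after RSL3, and 31 and 37 of the 41 lay under 5%. The medians of all genes tested were 5.85% and 5.71%. Since 27 of the 41 lie in the top quartile by mean count, the comparison is not one of like abundance, and that was not made. ATG16L1 in control (29%) and GABARAP after RSL3 (19.3%), the genes with the fewest counts, varied most. Of the 17 called genes, 8 share no exon base with another gene counted (5 that rose and 3 that fell). How reads on shared bases were counted is not stated in the sources used here. The exon lengths include those bases, so the RPKM of genes that share them may be too low. Beside SQSTM1, GABARAP and GABARAPL1, the shared part of the exon bases was 28.1% for WIPI1, 20.8% for ATG14, 19.2% for ATG101, 18.1% for ATG7, 17.1% for BECN1, 14.7% for ATG4D, 6.87% for ATG10 (with RPS23) and 6.44% for TAX1BP1, and in the remaining genes that share any it was at most 5.51%. The calls of SQSTM1, ATG2A, ATG4B, MAP1LC3B, GABARAPL1 and ULK1 stood in all 14 other fits tried. With 2 surrogate variables in DESeq2, RB1CC1 was the only other gene still called, giving 6 higher and 1 lower.

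**Figure D5:**
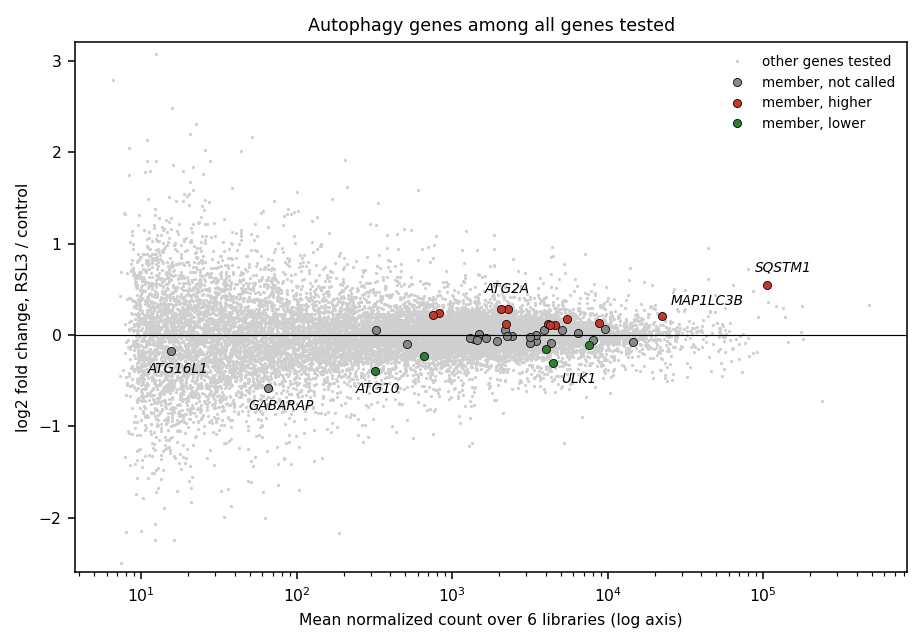
Log2 fold change (y axis) against mean normalized count over the 6 libraries (x axis, logarithmic) for the genes tested, with the 41 autophagy genes as large points, red called higher, green called lower, grey not called. Of the 41, 27 lie in the top quartile by mean count, SQSTM1 lies highest at 0.55, and GABARAP lies lowest at -0.58 with at most 91.014 normalized counts in any library.

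Around this machinery, 95 further autophagy genes were examined in 5 lists, of which 93 were tested (ATG9B and RILP had too few reads). Of these, 10 rose and 19 fell, 31.2% against the 25.6% of all genes. Well-expressed genes were called more often, 45.6% of them in the top quartile by mean count. A comparison at like abundance was not made for these lists, so the 2 shares do not show that they stand out. With 2 surrogate variables in DESeq2, 7 of the further genes were still called: TMEM41B, SMCR8, TP53INP2, RAB1A, YIPF4, NCOA4 and MITF. The other calls named below did not pass in that fit, with adjusted p from 0.0509 (PRKAA1) to 0.45 (FOXO1). The mTORC1 and AMPK list, the nutrient and energy sensors upstream of ULK1, gave 4 rises and 6 falls among 32. Both catalytic subunits of AMPK rose: PRKAA1 from 2784 ± 85.6 to 3181 ± 5.91 normalized counts (log2 fold change 0.19, adjusted p = 0.000342) and PRKAA2 from 769.6 ± 29.1 to 968.5 ± 70.2 (0.33, adjusted p = 0.000501; SD, n = 3 each, edgeR). TBC1D7, a subunit of the TSC complex that restrains mTORC1, rose by 0.27 (adjusted p = 9.99e-05). DEPTOR, an inhibitor bound to mTOR, fell by 0.91 on the log2 scale from low counts, 113.93, 129.14 and 106.28 in control against 66.667, 61.266 and 56.903 (adjusted p = 0.00055, edgeR). FNIP2, a partner of folliculin, and DDIT4, a stress-induced mTORC1 inhibitor, had log2 fold changes of -0.17 (adjusted p = 0.00217) and -0.12 (adjusted p = 0.00498). MTOR itself had 3783 ± 142 and 3894 ± 41.2, with overlapping groups (0.04, adjusted p = 0.439).

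Of 8 transcription regulators of autophagy, 1 rose and 3 fell. TFE3, which binds CLEAR sites in lysosomal and autophagy genes, rose from 4641 ± 82.5 to 5047 ± 133 normalized counts (log2 fold change 0.12, adjusted p = 0.00978, edgeR), a call lost without RSL3 library 2 (adjusted p = 0.0734). Its relative MITF fell from 449 ± 38.3 to 326.6 ± 25.4 (-0.46, adjusted p = 0.000834), and TFEB, the best known of this family, was scarce at 74.93 ± 6.74 and 70.26 ± 5.99 with overlapping groups (-0.09, adjusted p = 0.801; SD, n = 3 each). ATF4, the effector of the integrated stress response, fell by 0.13 on the log2 scale (adjusted p = 0.00121). FOXO1 fell by 0.23 (adjusted p = 0.0234, edgeR), which was lost without control library 1 (adjusted p = 0.0931) or 3 (0.0568) or RSL3 library 2 (0.0757) or 3 (0.0803).

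Other factors of autophagosome formation gave 2 rises and 4 falls among 17 tested. TMEM41B, a scramblase that works beside VMP1, rose from 4532 ± 166 to 5527 ± 75.9 normalized counts (log2 fold change 0.29, adjusted p = 1.59e-06), and SMCR8, a partner of C9orf72, from 4890 ± 102 to 5943 ± 341 (0.28, adjusted p = 9.46e-06, edgeR). WDR41, the remaining subunit of the C9orf72 complex, went the other way (-0.15, adjusted p = 0.00216), as did TP53INP2 (-0.24, adjusted p = 1.73e-05), which binds ATG8 proteins, and the GTPase RAB1A (-0.14, adjusted p = 0.000874). Of 15 genes tested for fusion with lysosomes, none rose and STX7, a lysosomal SNARE, fell (-0.14, adjusted p = 0.0079, edgeR), a call lost without RSL3 library 2 (adjusted p = 0.0593).

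Receptors for organelles and ferritin gave 3 rises and 5 falls among 21. NCOA4, the receptor that carries ferritin to lysosomes, had 8837.5, 8456.9 and 8752.7 normalized counts in control and 7466.7, 7517 and 7735.9 after RSL3. All RSL3 libraries were below all control libraries, and the log2 fold change was -0.20 ± 0.03 SE (adjusted p = 5.17e-05, edgeR). NIPSNAP1, a mitochondrial protein that recruits receptors, fell by 0.22 (adjusted p = 0.000145) and RETREG1, the receptor for endoplasmic reticulum sheets, by 0.19 (adjusted p = 0.00127), both on the log2 scale. Another reticulum receptor, SEC62, rose by 0.12 (adjusted p = 0.00427), WDFY3, a scaffold for aggregate clearance, by 0.18 (adjusted p = 0.00132) and the Golgi protein YIPF4 by 0.22 (adjusted p = 4.23e-05, edgeR).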

How the data were processed

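Poly(A) RNA of U87MG cells was sequenced in 6 libraries, 3 control and 3 RSL3, grouped by the treatment in the labels. The authors checked reads with FastQC 0.11.5, trimmed them with Trimmomatic 0.36 and fastp, aligned them to GRCh38.p4 with HISAT2, handled alignments with SAMtools 1.3.1 and counted reads on exons, unstranded, with HTSeq-count 0.6.1p1. The annotation release is not given in the sources used here. The deposited values are raw counts per gene for 65988 identifiers, without normalization; transcript assemblies were not used here.

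The tests used edgeR 4.0.16 under R 4.3.3: filterByExpr (minimum count 10) kept 16105 genes, library sizes were scaled by TMM (factors 0.995 to 1.01), and RSL3 was compared with control by the quasi-likelihood F test, two-sided, no covariates, Benjamini-Hochberg adjustment, threshold 0.05. The study used DESeq2 after surrogate variable analysis; DESeq2 1.42.0 with 0, 1 or 2 surrogate variables (sva 3.50.0) is an alternative here. Normalized counts are TMM-scaled to the mean library size of 34090078. RPKM used merged exon lengths of GENCODE v44. Exon overlaps are with genes present in the deposited files and hold only as far as the authors' annotation has the same exons. Total counts of 27813462 to 43306335 set the precision, and errors are SDs over 3 libraries or model SEs. Shares of a summed level were compared by a two-sided exact permutation test.

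The 41 genes, the further lists, the marker lists and the tests were chosen with earlier results of these data known. All 41 genes may be named, with each library's value for those called and for the gene with the highest level per length of a step; of each further list, up to 3 called genes a direction with the smallest p, and NCOA4, TFEB and MTOR. Alternatives were other scalings, filters, tests and thresholds, a replicate block, and each library left out in turn. Tested on simulated counts (200 genes changed, 15855 tested), the edgeR step recovered 61.6% of genes changed by 0.5 on the log2 scale and 88.7% of those changed by 1, and called 0.128% of the unchanged. Smaller changes, such as those of the called members other than SQSTM1, were not simulated. Far fewer genes changed in the simulation than were called in the data, so these rates need not hold there. Replicates differed beyond counting noise (chi-square per degree of freedom 2.43 to 5.58), so none was counted as a copy of another. Promoter windows came from RefSeq (GRCh38.p14). Protein sequences were not analysed here.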

Additional observations from a re-analysis of the deposited data

How the results depend on the processing

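The 12 higher and 5 lower members, 29 further genes called and 4123 genes called overall were the same or within 1.5 times with DESeq2's size factors, either filter, and DESeq2 with 0 or 1 surrogate variables. Total counts in place of TMM gave 8 lower members. DESeq2 with 2 surrogate variables gave 1328 genes, 6 higher and 1 lower members, 7 further genes and a member median log2 fold change of 0.032; the cause was not tested. An adjusted p under 0.01 left 2691 genes and 6 higher members, and a minimum log2 change of 0.2 in size left 2519 genes, 6 higher, 3 lower and 11 further genes, both being stricter by construction. Leaving out each library gave 6 to 10 higher (6 without RSL3 library 2) and 5 to 6 lower members, 21 to 30 further genes, 3081 to 3924 genes overall and a median from -0.022 to 0.01. After group means were removed, control and RSL3 libraries of the same number correlated at 0.0222, 0.0273 and 0.0745. Pairs of different number correlated at -0.0514 to 0.0242, and RSL3 library 1 was slightly nearer control library 2, at 0.0242. Values this weak cannot settle whether the replicate numbers pair the libraries. With the replicate block, 12 members were higher, 9 lower, and 4633 genes were called. ATG5, GABARAP, OPTN and CALCOCO2 passed as lower only in such other fits, here with adjusted p = 0.0469, 0.0453, 0.0105 and 0.0305 (edgeR). The SQSTM1 share difference was 8.17 points on raw counts and 8.06 to 9.17 with a library left out, that of MAP1LC3B 2.05 and 2.39 to 3.6. Among the members and the further genes named, signs turned only in genes not called. With 2 surrogate variables they were BECN1 (0.067), ATG14 (0.028), WIPI2 (0.033), WDR45 (0.066), VMP1 (-0.016), ATG4A (0.016), ATG16L1 (0.155), TFEB (0.021) and MTOR (-0.017). With a library left out the ranges were -0.022 to 0.018 (WIPI2), -0.009 to 0.135 (ULK2), -0.052 to 0.052 (BECN1), -0.065 to 0.011 (PIK3R4), -0.084 to 0.01 (ATG14), -0.052 to 0.013 (WDR45), -0.056 to 0.006 (ATG9A), -0.325 to 0.048 (ATG16L1) and -0.013 to 0.048 (MAP1LC3A), all log2 fold changes. The counts of ATG16L1 and GABARAP, the lowest of the members, leave wide intervals; why they are low was not tested.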
